A study of Homo sapiens with 18 samples.

Results

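Genistein at 20 µM was compared with genistein at 10 µM in LNCaP, a human prostate cancer cell line that depends on androgen and carries PSMA, the prostate-specific membrane antigen encoded by FOLH1. The 6 libraries were those labelled as LNCaP treated with genistein, 3 at each concentration, out of 18 libraries of the study, and they were taken by those labels with no measured value. All 63241 genes listed in the count table were eligible, and 16985 passed the filter on low counts and were tested. Per its title, the study examined genistein and baicalein as sensitizers to radioligand treatment aimed at PSMA. Both groups were LNCaP of wild type label, grew in RPMI-1640 with fetal bovine serum and antibiotics, and received genistein for 24 h. The untreated LNCaP libraries, given as the reference level beside the step, are called untreated by the sample labels, while the treatment protocol describes vehicle (DMSO) for the controls. Baicalein at 10 and 20 µM for 24 h in the same line was used for 1 comparison, and untreated PC-3 was not used. Whether the replicates came from separate cultures is not stated in the labels. The p-values therefore reflect library-to-library spread, possibly technical, and all LNCaP libraries come from 1 line.

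Genistein is a soy isoflavone known as an inhibitor of protein tyrosine kinases and as a ligand of oestrogen receptors. Sterol regulatory element-binding proteins (SREBPs) are transcription factors held in the endoplasmic reticulum by INSIG proteins while sterols are abundant. When sterols fall they are cut free and, with the CCAAT-binding factor NF-Y, switch on the enzymes that make cholesterol and fatty acids. ATF4 is the transcription factor of the integrated stress response, which raises genes of amino acid supply and redox balance. In prostate cells androgens drive the secretory genes of the luminal epithelium, among them the kallikreins.

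Between 10 and 20 µM 17 of 20 cholesterol synthesis and 9 of 18 fatty acid synthesis genes rose. So did 12 of 31 genes of the ATF4 response and 4 of 7 metallothionein and zinc response genes. Some androgen-induced genes and some DNA replication genes fell. FOS and EGR1, which had risen at 10 µM, came back towards the untreated level. In all, 950 genes were higher and 1296 lower at 20 µM at an adjusted p under 0.05, which is 5.59% and 7.63% of those tested. A gene past this threshold is named as called below. Among them 401 were at least 2-fold higher and 369 at least 2-fold lower by the fitted fold change. At an unadjusted p under 0.05 there were 4884 genes. For 10247 genes (60.3%) the 95% interval of the change stayed within 2-fold, and 5407 genes that were not called had an interval that reached beyond 2-fold, so a 2-fold change could not be told from none there at this number of libraries. Protein-coding genes were called higher in 6.3% and lower in 7.49%, long noncoding RNA genes in 4.16% and 8.13%, and pseudogenes in 1.38% and 4.55%. All fold changes are log2 values of 20 against 10 µM ± standard error from the fit unless another comparison is named.

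Library composition moved with the calls. Of tested protein-coding genes with a known transcript sequence, the 20% with the lowest GC content (30.24 to 40.82%) had a median log2 fold change of 0.41, with 7.48% called higher and 0.585% lower. In the 20% with the highest GC content (58.27 to 75.96%) the median was -0.10, with 4.68% called higher and 13.2% lower. The difference between low-GC and high-GC genes varied by library within each dose, from -0.44 to -0.02 (log2 CPM) at 10 µM, from -0.14 to 0.47 at 20 µM and from -0.10 to 0.32 in untreated cells, and the ranges of the 2 doses overlapped. With this trend and that of transcript length removed from each library, 1746 genes were called higher and 1720 lower, and 2045 of the 2246 calls were shared, all in the same direction. The part of GC content in the calls was not tested further, and where removing the trend ended the call of a gene named below, the adjusted p without it is given. The total of 2246 calls (13.2%) also rested on single libraries: without replicate 2 or 3 at 10 µM it was 1265 or 1224, and without replicate 2 or 3 at 20 µM it was 1256 or 1201. Over 5 equal classes of protein-coding genes by transcript length, the share called lower ran from 3.23% in the shortest to 10.4% in the fourth, and that called higher from 5.65 to 7.01%. By genomic span the shares ran from 6.9 to 7.95% lower and from 5.07 to 8.3% higher. The use of strand in counting is not stated, so the counts of genes that overlap another tested gene with 50% or more of their level are uncertain. Of those named below these are MVK, FADS1, FADS2, CPT1B, DDIT3, WIPI1, FLCN, KRT18, GPER1, FOSB, GAB2, CHAF1A, FANCI, FANCA, XRCC3, GEN1, CHEK2, C5orf24, MC1R, YJEFN3, ZNF589 and ENSG00000284820.

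**Figure D1:**
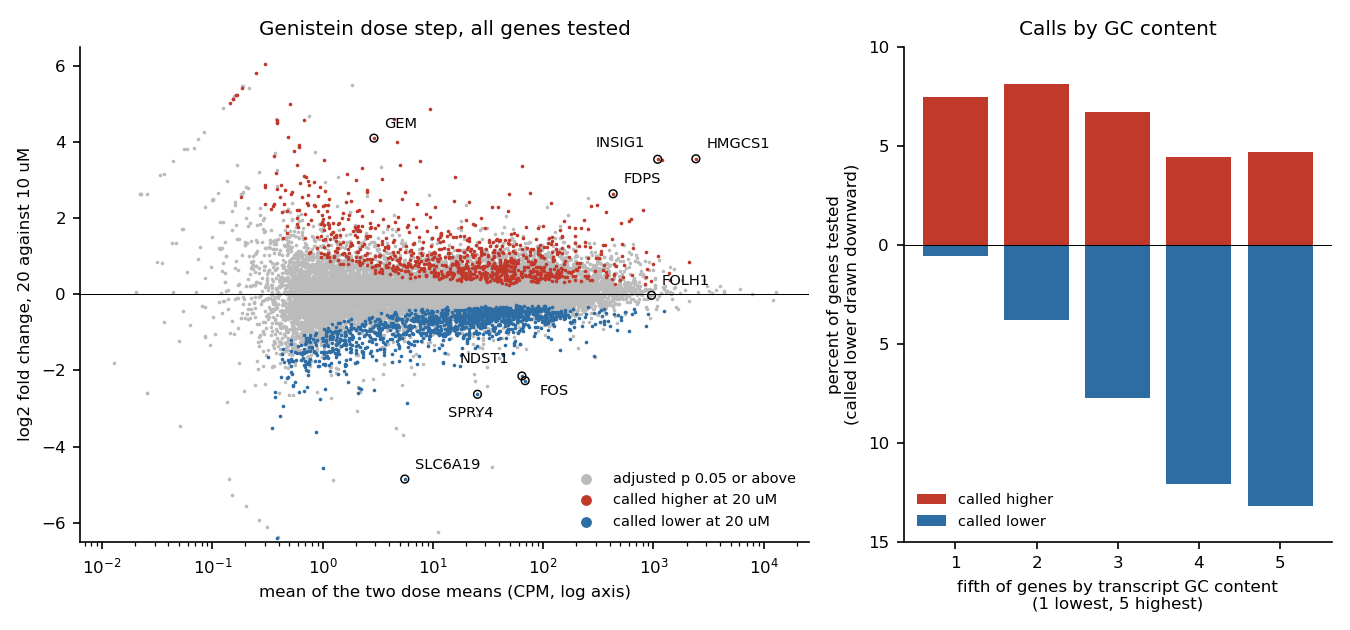
Left, log2 fold change of 20 against 10 µM genistein (y) against the mean of the 2 dose means in CPM (x, log axis) for genes tested, with 6 genes beyond the plotted range left out and called genes in red (950 higher) and blue (1296 lower). Right, percent of tested protein-coding genes in each of 5 equal classes of transcript GC content that were called higher (upward) or lower (downward). The lower calls run from 0.585% in the lowest class to 13.2% in the highest.

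The 6 libraries held 11249593 to 16475824 counts each. Pairs of libraries within a dose differed by more than sampling noise, with chi-square statistics per degree of freedom of at least 12.01. Mitochondrially encoded genes took 6.05% ± 0.483 of counts at 10 µM and 5.62% ± 0.613 at 20 µM (SD, n = 3), which did not differ beyond the spread (exact two-sided permutation test, p = 0.4, where 0.1 is the smallest possible). The labelled cell type was checked on markers of luminal prostate epithelium. All 10 were counted, and their summed level was 4350 to 4750 CPM in untreated libraries, 3850 to 4330 at 10 µM and 3120 to 3210 at 20 µM. Summed markers of basal, neuroendocrine, endothelial and immune cells and of PC-3 reached at most 6.3 CPM in any library of the 3 conditions. The 8 mesenchymal markers summed to 18.5 to 23.1 CPM at 10 µM and 27.1 to 29.5 at 20 µM, and of these VIM rose from 6.5 to 14.1 CPM (log2 1.12 ± 0.14, adjusted p = 0.00032). COL1A2 and DCN were at 0 in the untreated and 10 µM libraries, and FAP in those at 20 µM as well. In bulk RNA a change in cell make-up and a change per cell cannot be told apart, and the part of these markers in the results was not tested. Some genes jumped between libraries of 1 dose: among genes with a mean of at least 50 CPM the highest library exceeded the lowest over 4-fold for 21 of 4571 genes at 10 µM and for 62 of 4773 at 20 µM.

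Cholesterol synthesis was the list with the highest called share, 17 of 20 enzymes higher and 0 lower, with a median log2 fold change of 1.84 against 0.03 over all genes tested. Between 16 and 17 were higher whichever library was left out. HMGCS1, which makes HMG-CoA (chr5:43287470-43313512 on GRCh38, minus strand), had 155, 486 and 494 CPM in the untreated libraries, 409.6, 366 and 360.2 at 10 µM and 5095, 6685 and 1642 at 20 µM. Its 20 µM libraries lay above all others but differed over 4-fold among themselves, with a mean of 4474 ± 2578 CPM (SD, n = 3; log2 fold change 3.56 ± 0.68, adjusted p = 0.0051).

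FDPS, which makes farnesyl diphosphate (chr1:155308748-155320666, plus strand), had 104, 120.4 and 112 CPM in the untreated libraries, 112, 123 and 122 at 10 µM and 765, 731 and 734 at 20 µM. It rose 6.24-fold (log2 2.64 ± 0.13, adjusted p = 1.75e-07). Squalene synthase FDFT1 went from 285 to 1336 CPM (log2 2.23 ± 0.11, adjusted p = 1.75e-07). Squalene epoxidase SQLE went from 100.5 to 514 CPM (log2 2.36 ± 0.19, adjusted p = 9.29e-06). In both, as in FDPS, every 20 µM library was above every 10 µM library, a pattern found higher in 19.1% and lower in 20.7% of all genes tested. MSMO1, which removes the methyl groups at carbon 4 of the sterol ring, had 207, 184 and 182 CPM at 10 µM and 1726, 2245 and 2617 at 20 µM (log2 3.52 ± 0.25, adjusted p = 4.39e-06). IDI1, the isopentenyl diphosphate isomerase, had 353, 200.2 and 189.7 CPM at 10 µM and 762, 997 and 1085 at 20 µM (log2 1.94 ± 0.36, adjusted p = 0.00429). ACAT2, which joins acetyl-CoA units at the entry of the pathway, went from 136 to 607 CPM (log2 2.16 ± 0.09, adjusted p = 9.2e-08). Others called higher were CYP51A1, DHCR7, EBP, HSD17B7, LSS, MVD, MVK, NSDHL and SC5D. CYP51A1 and HSD17B7 have pseudogene copies in the count table, so their counts are uncertain.

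PMVK, the phosphomevalonate kinase, changed from 78.6 to 86.4 CPM (log2 0.14 ± 0.13, adjusted p = 0.516) and TM7SF2, a sterol reductase, from 171 to 198 CPM (log2 0.21 ± 0.11, adjusted p = 0.236), and neither was called. This depended on the processing. With the GC and length trend removed 19 of the 20 enzymes were called higher. Over all alternatives the lowest adjusted p was 0.0224 for PMVK and 0.00631 for TM7SF2. In the comparison of 10 µM with untreated cells, where 0.112% of all genes were called, 0 of the 20 enzymes passed and their median was 0.06. Against untreated cells at 20 µM, where 8.31% of genes were called higher and 8.12% lower, 19 of 20 were higher, with a median of 1.74. These comparisons share their libraries with the dose step.

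**Figure D2:**
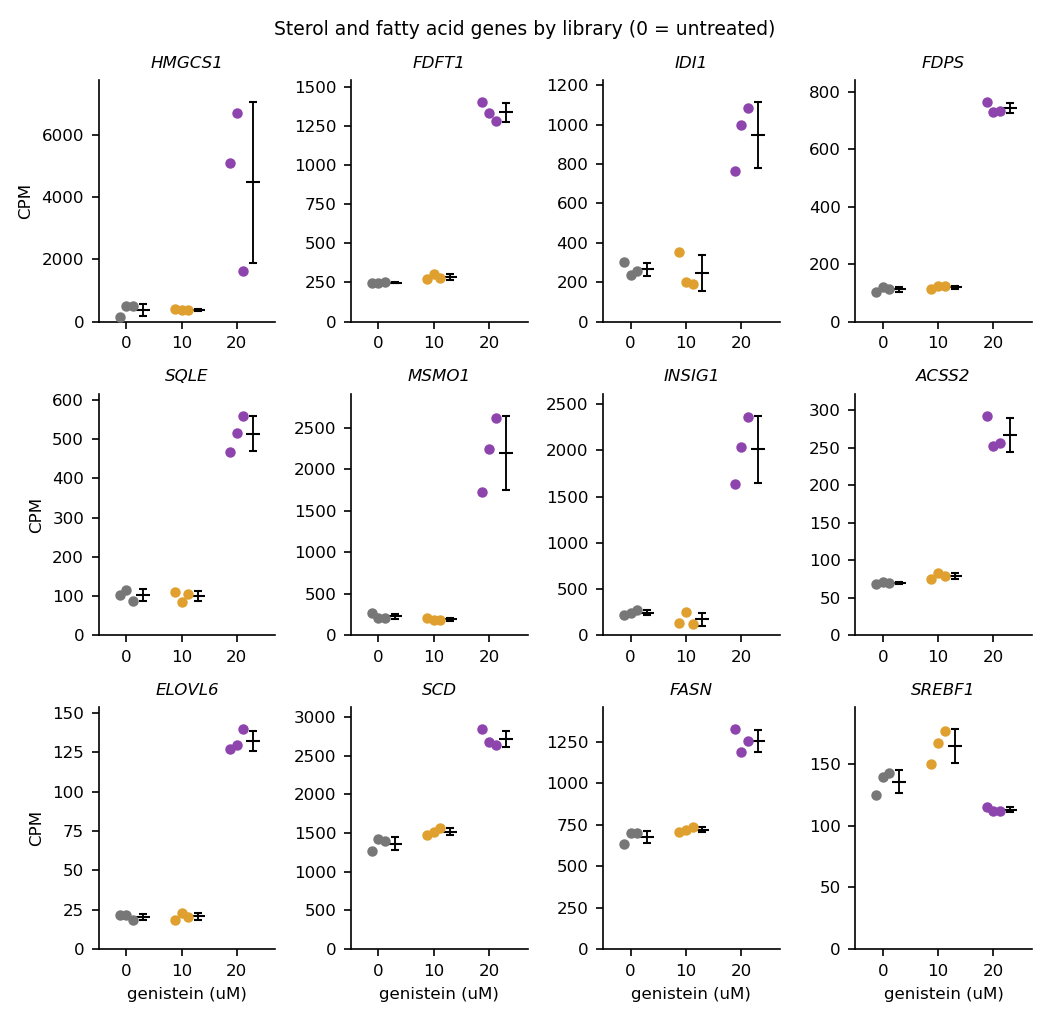
CPM (y, linear from 0) of 12 sterol and fatty acid genes in untreated LNCaP (0), 10 µM and 20 µM genistein (x); dots are single libraries, and the black mark with bars is the mean ± SD of 3. For FDPS and ELOVL6 the untreated and 10 µM libraries lie together and the 20 µM libraries several-fold above, whereas HMGCS1 is spread at 20 µM and SREBF1 is lower there.

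Because these enzymes moved together, the 250 bases before the RefSeq transcription start were read for 15 of the 20 that have an entry in the RefSeq promoter table (GRCh38, first listed start of each gene). The core NF-Y box, CCAAT on either strand, occurred in 12 of the 15 (80%), against 35.5% of tested genes with an entry and 33.0% of all 27305 promoters in the table. It was also more frequent than that in other lists, with 16 of 27 in the ATF4 list (59.3%), 8 of 15 in the sterol control list (53.3%) and 8 of 17 in the fatty acid list (47.1%). A common form of the sterol regulatory element, TCACNCCAC on either strand, occurred in 0 of the 15 and in 0.875% of all promoters. The 5 promoters printed here belong to strongly raised genes with an NF-Y box and run 5′ to 3′ on the gene's strand, with CCAAT or its reverse complement in capitals. They are HMGCS1 (chr5:43313413-43313662, minus), FDPS (chr1:155308616-155308865, plus), MSMO1 (chr4:165327419-165327668, plus), MVD (chr16:88663092-88663341, minus) and INSIG1 (chr7:155297628-155297877, plus).
HMGCS1: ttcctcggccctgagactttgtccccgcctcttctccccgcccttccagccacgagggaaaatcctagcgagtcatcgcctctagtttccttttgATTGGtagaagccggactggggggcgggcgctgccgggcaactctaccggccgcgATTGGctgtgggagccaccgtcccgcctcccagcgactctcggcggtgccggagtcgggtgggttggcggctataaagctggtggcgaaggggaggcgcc
FDPS: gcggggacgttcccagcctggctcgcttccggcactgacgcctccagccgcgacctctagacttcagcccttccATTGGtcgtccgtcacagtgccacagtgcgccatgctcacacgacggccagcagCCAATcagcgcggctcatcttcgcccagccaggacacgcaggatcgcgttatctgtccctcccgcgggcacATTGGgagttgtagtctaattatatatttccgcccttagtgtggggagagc
MSMO1: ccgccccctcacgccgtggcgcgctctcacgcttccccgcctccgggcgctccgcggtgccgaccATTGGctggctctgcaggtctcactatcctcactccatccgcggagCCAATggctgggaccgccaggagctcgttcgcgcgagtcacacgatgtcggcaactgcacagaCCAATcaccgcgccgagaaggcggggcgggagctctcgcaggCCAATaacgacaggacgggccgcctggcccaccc
MVD: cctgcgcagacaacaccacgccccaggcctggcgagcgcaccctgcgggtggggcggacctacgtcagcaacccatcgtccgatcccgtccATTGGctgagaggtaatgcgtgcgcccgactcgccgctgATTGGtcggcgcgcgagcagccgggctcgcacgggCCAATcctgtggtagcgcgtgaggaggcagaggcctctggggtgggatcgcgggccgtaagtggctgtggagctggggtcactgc
INSIG1: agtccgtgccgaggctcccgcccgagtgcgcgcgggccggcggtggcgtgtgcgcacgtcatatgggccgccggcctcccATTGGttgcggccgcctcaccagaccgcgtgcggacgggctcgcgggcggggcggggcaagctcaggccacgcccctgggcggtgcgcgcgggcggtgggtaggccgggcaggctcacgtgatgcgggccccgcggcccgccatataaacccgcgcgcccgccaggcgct
HMGCS1 held 2 such boxes, FDPS 3, MSMO1 4, MVD 3 and INSIG1 1. Over all genes called higher the box was no more frequent than among those not called, 36.2% against 35.4%. The RefSeq starts differ from the gene bounds of the count table given with the genes, and each window printed here reaches into those bounds. A match describes the letters in this window and is not a measured binding site.

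Control genes of the pathway moved less evenly. Of 16 tested genes of sterol uptake and control, 5 rose and 1 fell, with a median log2 fold change of 0.44. INSIG1, the sterol-dependent retention protein, had 219.8, 238 and 278 CPM in the untreated libraries, 136, 256 and 124 at 10 µM and 1639, 2042 and 2361 at 20 µM. All libraries at 20 µM lay above those at 10 µM (log2 fold change 3.55 ± 0.54, adjusted p = 0.00121). LPIN1, a phosphatidate phosphatase that feeds lipid synthesis, had 107, 100 and 93.2 CPM at 10 µM and 263, 299 and 312 at 20 µM (log2 1.54 ± 0.14, adjusted p = 2.99e-05). The 2 SREBP genes moved in opposite directions. SREBF1 had 125, 139 and 143 CPM in the untreated libraries, 149.8, 167 and 176 at 10 µM and 115, 112 and 112 at 20 µM, with all 20 µM libraries below the others (log2 -0.54 ± 0.11, adjusted p = 0.00539). SREBF2 had 293, 316 and 329 CPM at 10 µM and 454, 419 and 421 at 20 µM and was called higher (log2 0.47 ± 0.13, adjusted p = 0.0292), a call lost when any 1 of the 6 libraries was left out (adjusted p up to 0.0989). INSIG2, the paralogue of INSIG1, was called higher (log2 0.45 ± 0.12, adjusted p = 0.0277), but not without replicate 2 or 3 at 10 µM or replicate 3 at 20 µM (adjusted p up to 0.133), and with the GC and length trend removed its change was -0.03 (adjusted p = 0.944). STARD4, a sterol carrier, was called (log2 1.71 ± 0.41, adjusted p = 0.0165), but not without replicate 2 or 3 of either dose (adjusted p up to 0.0745). Without replicate 2 or 3 at 10 µM, or replicate 2 or 3 at 20 µM, 2, 2, 3 and 2 of the list were called higher. ABCG1, a sterol exporter and target of the liver X receptors, fell from 2.71 ± 0.444 to 0.823 ± 0.127 CPM (log2 -1.71 ± 0.32, adjusted p = 0.00375). Of 10 genes on the list of liver X receptors and their targets 0 rose and 2 fell, SREBF1 being the other. With the GC and length trend removed 1 was higher and 2 were lower.

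Fatty acid synthesis rose in 9 of 18 tested genes, with 0 lower and a median log2 fold change of 0.78. ELOVL6, which elongates palmitate, had 21.5, 21.6 and 18.4 CPM in the untreated libraries, 18.5, 23.1 and 20.7 at 10 µM and 127, 129.9 and 139.7 at 20 µM. Untreated and 10 µM libraries overlapped while those at 20 µM were 6.37-fold higher than at 10 µM (log2 2.67 ± 0.13, adjusted p = 1.75e-07). SCD, the stearoyl-CoA desaturase, had 1478, 1513 and 1563 CPM at 10 µM and 2841, 2676 and 2639 at 20 µM (log2 0.84 ± 0.10, adjusted p = 0.000295). The fatty acid synthase gene FASN had 708, 715 and 737 CPM at 10 µM and 1324, 1189 and 1252 at 20 µM (log2 0.80 ± 0.14, adjusted p = 0.0033). ACSS2, which makes acetyl-CoA from acetate, rose from 78.9 to 267 CPM (log2 1.76 ± 0.14, adjusted p = 7.59e-06). FADS1, a fatty acid desaturase, rose from 204 to 499 CPM (log2 1.29 ± 0.09, adjusted p = 3.79e-06) and lies over FADS2, also called higher, so their reads may not be told apart. ACLY, ME1 and ACSL4 were also called. ACSL4, which activates polyunsaturated fatty acids, had 7.13, 7.14 and 5.96 CPM at 10 µM and 21.4, 39.2 and 47.6 at 20 µM (log2 2.42 ± 0.41, adjusted p = 0.00238). ACACA, the acetyl-CoA carboxylase that commits carbon to the pathway, had 277, 271 and 296 CPM at 10 µM and 327, 304 and 279 at 20 µM and was not called (log2 0.11 ± 0.13, adjusted p = 0.634, 95% interval -0.18 to 0.40). Of 14 fatty acid oxidation genes 0 rose and 1 fell, CPT1B, whose call was lost when replicate 2 or 3 at 10 µM or any of the 3 at 20 µM was left out (adjusted p up to 0.144).

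Of 31 genes of the ATF4 amino acid response 12 rose and 0 fell, with a median log2 fold change of 0.35. Leaving out any 1 library left 6 to 9 called, with 7 without replicate 1 or 3 at 10 µM and 6 without replicate 3 at 20 µM. DDIT3, the stress transcription factor CHOP, had 69.8, 75.6 and 68.5 CPM in the untreated libraries, 75.7, 72.5 and 83.6 at 10 µM and 242, 209 and 202 at 20 µM. Its 20 µM libraries stood apart from all others (log2 1.5 ± 0.14, adjusted p = 3.63e-05). TRIB3, a pseudokinase induced by CHOP and ATF4, had 206, 230.3 and 233 CPM at 10 µM and 649, 581 and 608 at 20 µM (log2 1.46 ± 0.14, adjusted p = 4.28e-05). CEBPB, a bZIP partner of ATF4, rose from 49.6 to 102 CPM (log2 1.05 ± 0.14, adjusted p = 0.000493). SESN2, a leucine sensor, rose from 59.6 to 106 CPM (log2 0.83 ± 0.14, adjusted p = 0.00258) and ATF4 itself from 136 to 203 CPM (log2 0.57 ± 0.13, adjusted p = 0.00991). DDIT3 overlaps MARS1 on the other strand, which was counted at 50% or more of its level, so its count is uncertain.

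Not every target moved. Asparagine synthetase ASNS had 308, 333 and 317 CPM at 10 µM and 426, 353 and 273 at 20 µM and was not called (log2 0.14 ± 0.18, adjusted p = 0.655, 95% interval -0.25 to 0.52). ATF3 had 6.75, 41 and 16.8 CPM in the untreated libraries, 39.8, 16.8 and 44.9 at 10 µM and 44.4, 79.9 and 75.8 at 20 µM, with overlapping doses (log2 0.98 ± 0.56, adjusted p = 0.269). The C/EBP-ATF composite element, TGATGNAA on either strand, was found before the start of 4 of 27 genes of the list with a promoter entry (14.8%), namely ASNS, CHAC1, AARS1 and ATF3, against 3.19% of all promoters. It stood in 3.01% of promoters of genes called higher, 0.839% of those called lower and 1.34% of those not called. CHAC1, a glutathione-degrading enzyme, was the member of these 4 that was called (log2 0.61 ± 0.19, adjusted p = 0.0487), though not without replicate 1 or 3 at 10 µM or any replicate at 20 µM (adjusted p up to 0.124). Its promoter on chr15:40953221-40953470 (GRCh38, plus strand) is shown with the element in capitals, and lies inside the gene bounds of the count table.
CHAC1: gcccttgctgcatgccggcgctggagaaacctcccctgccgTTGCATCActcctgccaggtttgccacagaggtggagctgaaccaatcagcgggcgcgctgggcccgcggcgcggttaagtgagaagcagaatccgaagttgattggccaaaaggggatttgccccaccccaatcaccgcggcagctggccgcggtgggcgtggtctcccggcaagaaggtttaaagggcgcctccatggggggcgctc
Of 22 genes of the unfolded protein response of the endoplasmic reticulum 3 rose and 0 fell, ATF6, SEL1L and ERN1. Each of these calls was weak: ATF6, a membrane-bound stress sensor, was at an adjusted p of 0.0606 with the GC and length trend removed, and SEL1L and ERN1 were lost without replicate 2 or 3 of either dose, ERN1 also without replicate 1 at 10 µM, with adjusted p up to 0.0682 and 0.162.

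Metallothioneins are small proteins that bind zinc and copper. On the list of metallothionein and zinc response genes 4 of 7 tested members were called higher, all of them metallothioneins. On that list 0 were lower, and its median log2 fold change was 1.00. MT2A had 192, 204 and 210.5 CPM in the untreated libraries, 189, 221 and 223 at 10 µM and 546, 515 and 503 at 20 µM, with the 20 µM libraries apart from the rest (log2 1.31 ± 0.12, adjusted p = 2.87e-05). MT1X rose from 66.3 to 174 CPM (log2 1.40 ± 0.15, adjusted p = 8.13e-05), MT1F by 1.18 and MT1G by 0.90 on the log2 scale. These genes are near-identical to each other, and reads may be split between them. Among 21 antioxidant targets of the factor NRF2 5 rose and 1 fell; it was 3 without replicate 2 or 3 of either dose. The haem-degrading enzyme HMOX1 had 21.2, 24.2 and 21.8 CPM at 10 µM and 53.1, 45.2 and 47.2 at 20 µM (log2 1.11 ± 0.15, adjusted p = 0.000641). NQO1, a quinone reductase, had 183, 184 and 195 CPM at 10 µM and 196, 206 and 224 at 20 µM and was not called (log2 0.15 ± 0.09, adjusted p = 0.302). ABCC1, an exporter of glutathione conjugates, was the member that fell, from 145 to 75.7 CPM (log2 -0.94 ± 0.12, adjusted p = 0.00032). TXNIP, the thioredoxin-binding arrestin, fell from 112 to 52 CPM (log2 -1.10 ± 0.09, adjusted p = 1.33e-05).

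Lysosome and autophagy genes were called higher in 6 of 32 and lower in 1, with a median log2 fold change of -0.06. WIPI1, which marks forming autophagosomes, had 14.7, 15.6 and 17.6 CPM at 10 µM and 34, 31.7 and 32.5 at 20 µM (log2 1.03 ± 0.10, adjusted p = 5.53e-05). The autophagy receptor SQSTM1 had 427, 847 and 893 CPM at 10 µM and 1555, 1409 and 1433 at 20 µM (log2 1.02 ± 0.22, adjusted p = 0.00839). MAP1LC3B, the lipidated autophagosome protein, rose from 95.1 to 200.3 CPM (log2 1.07 ± 0.18, adjusted p = 0.00223). GPNMB, FNIP2 and RRAGD rose and FLCN, a partner of FNIP2 in nutrient sensing, fell. Without replicate 2 or 3 of either dose 4 were higher and 0 lower, FNIP2, RRAGD and FLCN being lost (adjusted p up to 0.0805, 0.105 and 0.0902). WIPI1 overlaps another gene counted at 50% or more of its level.

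**Figure D3:**
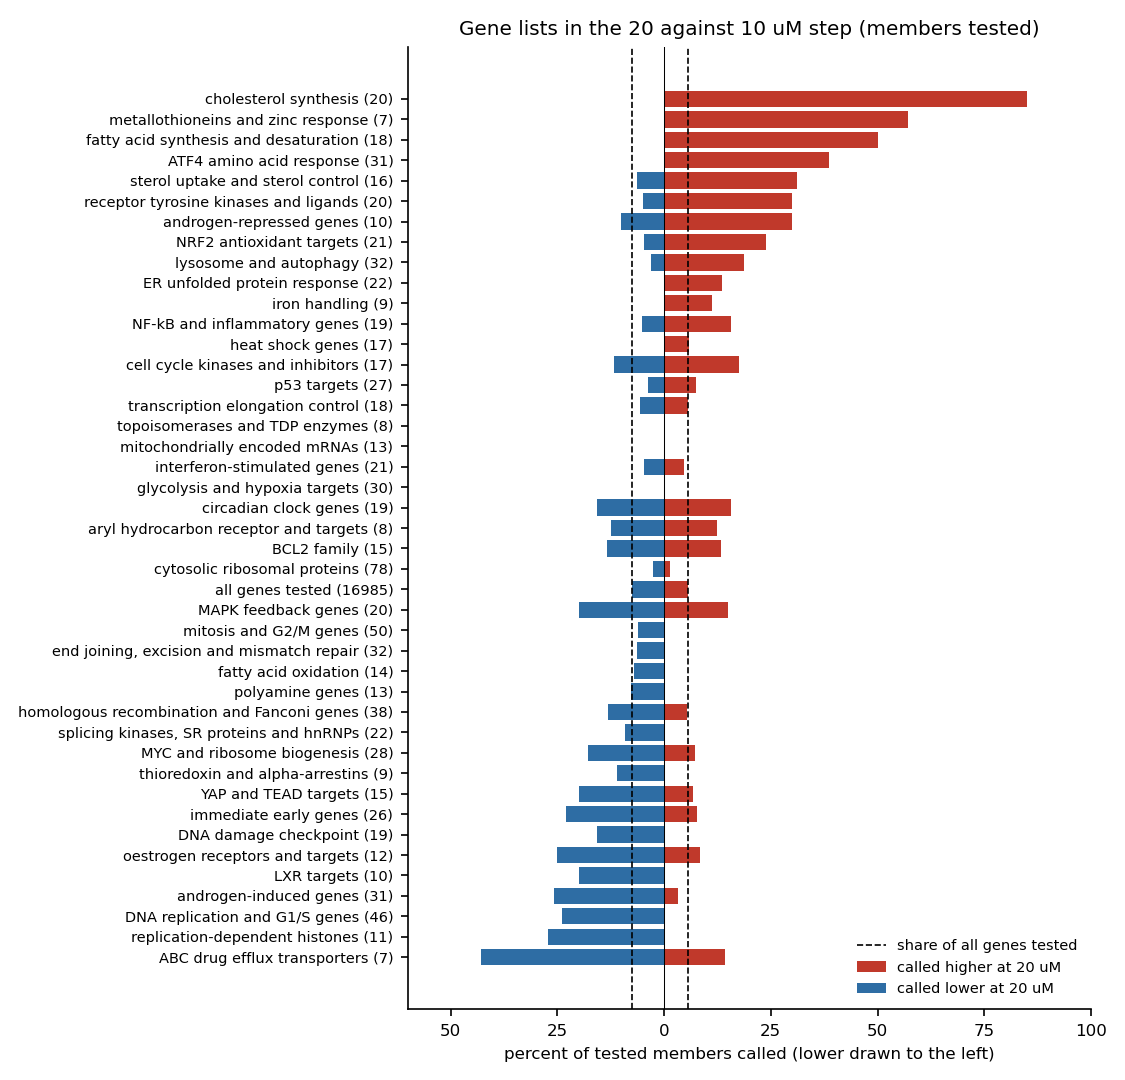
Percent of tested members called higher (right, red) or lower (left, blue) at 20 against 10 µM for lists of at least 7 tested genes, with the number tested in brackets; dashed lines are the shares over all genes tested, 5.59% higher and 7.63% lower. Not every list of that size is drawn. Cholesterol synthesis has the longest bar to the right, 17 of 20. The lists of mitochondrial mRNAs, topoisomerases and glycolysis are drawn with no bar because 0 of their members were called, and lists can share genes.

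Several genes of the luminal epithelium were lower at 20 µM. One was HOXB13, a prostate homeobox factor (log2 -0.69 ± 0.13, adjusted p = 0.00458). The acetyltransferase EP300, which is not one of the luminal markers, fell from 51 to 29.4 CPM (log2 -0.79 ± 0.14, adjusted p = 0.00335). HOXB13 had 387, 415 and 426 CPM in the untreated libraries, 450.5, 484 and 504 at 10 µM and 309, 287 and 295 at 20 µM, so its 10 µM libraries lay above the untreated ones and its 20 µM libraries below them. The difference of 10 µM from untreated was not called for HOXB13. Of the 10 luminal markers 6 were called lower and 1, KRT18, higher; KRT18 overlaps KRT8, and its call was lost when any 1 of the 6 libraries was left out.

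Among 31 androgen-induced genes 8 fell and 1 rose, with a median log2 fold change of -0.24. With the GC and length trend removed 16 fell and 4 rose, and without 1 library between 3 and 9 fell, 4 and 3 without replicate 2 and 3 at 10 µM, 5 and 4 without replicate 2 and 3 at 20 µM. Against untreated cells the median of the list was -0.41 at 10 µM and -0.65 at 20 µM. At 10 µM 4 of its members were called lower, against 0.0765% of all genes tested. These comparisons share libraries with the dose step. ACP3, prostatic acid phosphatase, had 139.8, 159 and 149.7 CPM in the untreated libraries, 210.5, 201 and 218 at 10 µM and 77.8, 79.2 and 70.1 at 20 µM. It lay above the untreated libraries at 10 µM and below them at 20 µM (log2 -1.47 ± 0.10, adjusted p = 3.79e-06; 0.49 at 10 µM and -0.98 at 20 µM against untreated). TMPRSS2, a membrane serine protease, had 304, 332 and 335 CPM in the untreated libraries, 217, 246 and 251 at 10 µM and 155, 146 and 138 at 20 µM, lower at each dose than at the one before (log2 of the step -0.70 ± 0.12, adjusted p = 0.00196). KLK2, a kallikrein protease, had 64.9, 68.6 and 70.9 CPM in the untreated libraries, 45, 40.8 and 48.4 at 10 µM and 26.7, 29.5 and 29 at 20 µM, in the same order (log2 -0.65 ± 0.12, adjusted p = 0.00445). At 10 µM against untreated ACP3, TMPRSS2 and KLK2 were not called, so their order over the doses rests on the libraries printed here.

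KLK3, which encodes PSA, had 1376, 1486 and 1628 CPM in the untreated libraries, 913, 1302 and 1169 at 10 µM and 757, 721 and 723 at 20 µM. All its libraries at 20 µM were below those at 10 µM, yet the change was not called (log2 -0.62 ± 0.20, adjusted p = 0.0613, 95% interval -1.06 to -0.18); with the GC and length trend removed it was, at an adjusted p of 0.0272. FOLH1, the gene of PSMA, had 859, 908 and 870.4 CPM in the untreated libraries, 957, 952 and 1002 at 10 µM and 918, 984 and 956 at 20 µM. Its libraries overlapped between doses, with a log2 fold change of -0.03 ± 0.08, adjusted p = 0.86 and a 95% interval of -0.20 to 0.15, and reads shared with its copy FOLH1B would make both counts uncertain. Of the 4 tested genes of that family 0 were called. The member that rose among the androgen-induced genes was ADAM7, a sperm surface protein made in the epididymis, described with the genes that moved at 10 µM. Of 10 androgen-repressed genes 3 rose and 1 fell. PRKCH, a protein kinase C, went from 98.1 to 164 CPM (log2 0.74 ± 0.11, adjusted p = 0.000939) and IGFBP3, which binds insulin-like growth factors, from 145 to 98 CPM (log2 -0.57 ± 0.11, adjusted p = 0.00498). UGT2B15, which glucuronidates androgens, was called higher (adjusted p = 0.0188) but not with the GC and length trend removed (adjusted p = 0.914) or without replicate 2 or 3 of either dose or replicate 1 at 10 µM (up to 0.0861). GPER1, a membrane receptor for oestrogen, fell from 19.4 to 5.51 CPM (log2 -1.82 ± 0.20, adjusted p = 0.000129), and overlaps C7orf50, so its count is uncertain. Of 8 tested genes of the aryl hydrocarbon receptor and its targets 1 rose, TIPARP, and 1 fell, with a median of -0.01. The call of TIPARP (adjusted p = 0.0456) was lost without any 1 library at 10 µM or replicate 2 or 3 at 20 µM (adjusted p up to 0.176). CYP1A1, the leading target and the one that fell, went from 3.61 to 0.602 CPM (log2 -2.60 ± 0.33, adjusted p = 0.000306). ESR1 and ESR2, the nuclear oestrogen receptors, did not pass the filter on low counts.

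Genistein at 10 µM differed from untreated cells in 19 genes, 6 higher (0.0353% of genes tested) and 13 lower (0.0765%). That comparison and the dose step use the same 10 µM libraries, so the values below stand side by side and are not independent. The genes in this paragraph and the next include some that were chosen after their values were seen, TNFRSF19 among them. FOS, an AP-1 subunit induced within minutes of growth factor signals (chr14:75278826-75282230, plus strand), had 7.32, 5.38 and 4.77 CPM in the untreated libraries, 124, 109.8 and 108 at 10 µM and 21.2, 21.9 and 27.7 at 20 µM. No libraries of the 3 conditions overlapped, and the 10 µM level was the highest: the log2 fold change was 4.28 from untreated to 10 µM (adjusted p = 2.69e-06) and -2.27 ± 0.23, adjusted p = 5.53e-05 from 10 to 20 µM. EGR1, a zinc finger factor of the same early response, had 1.35, 1.96 and 1.32 CPM in the untreated libraries, 13.6, 11.9 and 13.3 at 10 µM and 4.69, 5.03 and 5.47 at 20 µM, again with the 20 µM libraries between the others (log2 of the step -1.35 ± 0.14, adjusted p = 8.78e-05). FOSB had 0.208, 0.367 and 0.287 CPM in the untreated libraries, 5.44, 5.4 and 4.05 at 10 µM and 1.3, 0.747 and 0.593 at 20 µM (log2 of the step -2.52 ± 0.30, adjusted p = 0.000201). It overlaps ERCC1 on the other strand and is uncertain.

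CCN1, a secreted matricellular protein, had 10.4, 10.6 and 9.59 CPM in the untreated libraries, 20.2, 22.1 and 24.3 at 10 µM and 11.2, 11.3 and 9.42 at 20 µM. Its 20 µM and untreated libraries overlapped (log2 of the step -1.06 ± 0.13, adjusted p = 0.000216; 20 µM against untreated 0.06, adjusted p = 0.795). NDST1, which adds sulfate to heparan chains (chr5:150485818-150558211, plus strand), had 42.3, 52.4 and 42.5 CPM in the untreated libraries, 103, 105 and 106 at 10 µM and 27.6, 19.9 and 23.6 at 20 µM. It passed from above the untreated libraries at 10 µM to below them at 20 µM (log2 of the step -2.15 ± 0.20, adjusted p = 2.88e-05). In ADAM7, WWTR1 and TNFRSF19, as in some others of the 19, the 10 µM libraries were the lowest. ADAM7 had 25.3, 23.2 and 21.7 CPM in the untreated libraries, 10.1, 10.8 and 9.09 at 10 µM and 32.5, 37.2 and 38.3 at 20 µM, ending above the untreated level (log2 of the step 1.84 ± 0.17, adjusted p = 2.54e-05). WWTR1, the Hippo pathway coactivator TAZ, had 9.14, 8.31 and 8.9 CPM in the untreated libraries, 3.14, 4.38 and 3.82 at 10 µM and 8.85, 9.71 and 10.7 at 20 µM (log2 1.36 ± 0.19, adjusted p = 0.000582). TNFRSF19, a receptor of the tumour necrosis factor family, had 12.2, 15.8 and 15.2 CPM in the untreated libraries, 7.74, 8.6 and 7.41 at 10 µM and 12.2, 14.3 and 13.4 at 20 µM (log2 0.75 ± 0.13, adjusted p = 0.00231). Both had 20 µM libraries that overlapped with the untreated ones.

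**Figure D4:**
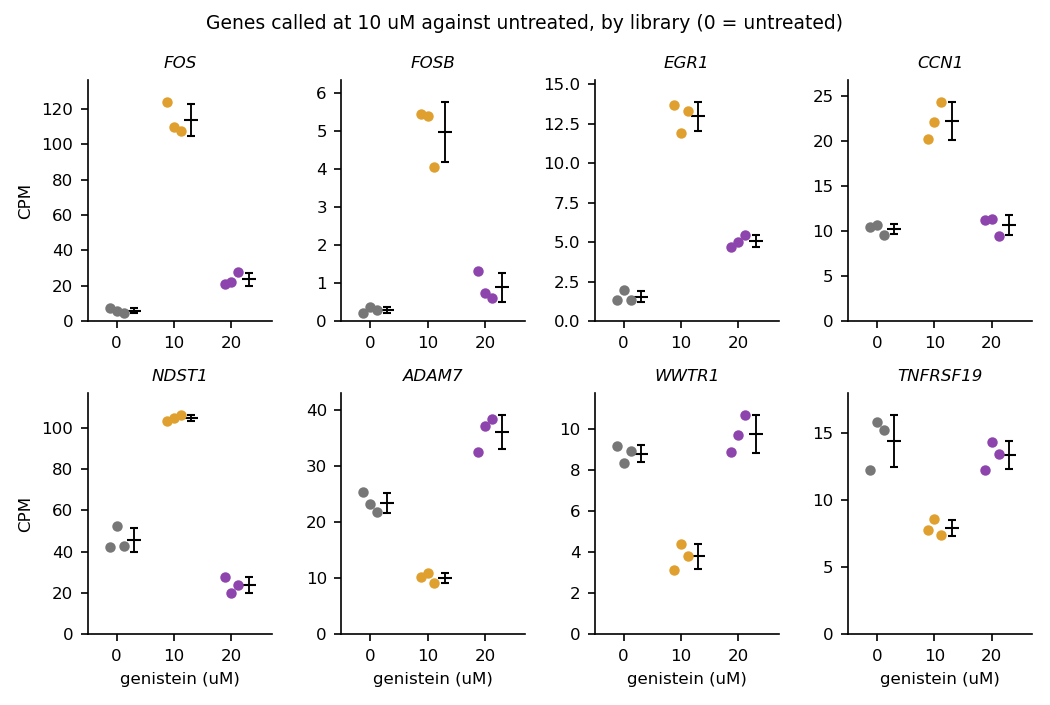
CPM (y, linear from 0) of 8 of the 19 genes called at 10 µM against untreated, chosen after their values were seen, in untreated LNCaP (0), 10 µM and 20 µM genistein (x); dots are libraries and black marks the mean ± SD of 3. FOS, FOSB, EGR1, CCN1 and NDST1 peak at 10 µM, and ADAM7, WWTR1 and TNFRSF19 are lowest there.

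Of 26 immediate early genes, which respond to signals without new protein synthesis, 6 fell and 2 rose in the step, with a median log2 fold change of 0.01. Those that fell were FOS, FOSB, EGR1, CCN1, BTG2 and DUSP1, and 5 fell whichever library was left out, DUSP1 being lost each time (adjusted p up to 0.144) and also with the GC and length trend removed (adjusted p = 0.184). GEM, a small GTP-binding protein of the same class, had 0.363, 0.306 and 0.345 CPM in the untreated libraries, 0.307, 0.45 and 0.153 at 10 µM and 3.73, 6.25 and 6.65 at 20 µM and gave the largest fitted rise among called protein-coding genes with at least 5 CPM at the higher dose and no overlap (log2 4.10 ± 0.69, adjusted p = 0.00223). JUND, an AP-1 subunit, was the other. Feedback genes of MAP kinase signalling were called higher in 3 and lower in 4 of 20. SPRY4, an inhibitor of receptor tyrosine kinase signalling (chr5:142310427-142326455, minus strand), had 40.9, 44 and 49.8 CPM in the untreated libraries, 41.5, 42.4 and 47.2 at 10 µM and 7.98, 7.61 and 5.66 at 20 µM. Its untreated and 10 µM libraries overlapped and all at 20 µM were several-fold lower (log2 -2.63 ± 0.14, adjusted p = 3.24e-07). SPRED3, of the same family, fell from 8.27 to 3.92 CPM (log2 -1.08 ± 0.17, adjusted p = 0.00154). The ERK phosphatase DUSP5 rose from 1.23 to 4.23 CPM (log2 1.77 ± 0.25, adjusted p = 0.000621). CCND1, cyclin D1, had 226, 239 and 224 CPM at 10 µM and 139, 135 and 146 at 20 µM (log2 -0.71 ± 0.12, adjusted p = 0.00226). Without replicate 2 or 3 at 10 µM or replicate 3 at 20 µM, 1 feedback gene was higher and 3 were lower.

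Receptor tyrosine kinases, their ligands and adaptors were called higher in 6 of 20 and lower in 1. IGF1R, the receptor for insulin-like growth factors, was the one that fell and had 78.1, 81.1 and 99.6 CPM in the untreated libraries, 70.2, 56 and 65.4 at 10 µM and 23.2, 25.9 and 27.2 at 20 µM. All libraries at 20 µM were below those at 10 µM (log2 -1.33 ± 0.13, adjusted p = 6.3e-05). The adaptor GAB2 had 0.935, 0.978 and 0.689 CPM in the untreated libraries, 1.46, 1.63 and 2.14 at 10 µM and 6.51, 6.11 and 5.6 at 20 µM, rising in order of dose (log2 of the step 1.80 ± 0.22, adjusted p = 0.000301). At 10 µM against untreated GAB2 was not called. Another gene overlaps it. FGFR2, a fibroblast growth factor receptor, rose from 1.21 to 4.13 CPM (log2 1.74 ± 0.31, adjusted p = 0.00308) and AREG, an EGF receptor ligand, from 0.221 to 1.24 CPM (log2 2.40 ± 0.40, adjusted p = 0.00184), both from low levels. EGF, HBEGF and IRS2 rose as well, though EGF was lost without replicate 1 at 10 µM, and IRS2 without that library or replicate 3 at 20 µM (adjusted p up to 0.0528 and 0.088).

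DNA replication and G1/S genes were called lower in 11 of 46 and higher in 0, with a median log2 fold change of -0.40. The count was 6, 3 and 4 without replicate 1, 2 and 3 at 10 µM, and 6, 4 and 2 without those at 20 µM, so it rests on all 6 libraries. CLSPN, which carries the replication checkpoint signal, had 12.5, 14.5 and 12.8 CPM in the untreated libraries, 10.5, 11.1 and 11.2 at 10 µM and 6.51, 5.84 and 5.73 at 20 µM, with no overlap between doses (log2 -0.86 ± 0.17, adjusted p = 0.0067). The helicase subunit MCM2 had 55.5, 72.9 and 73.9 CPM in the untreated libraries, 56.8, 59.5 and 68.8 at 10 µM and 42.3, 34.8 and 36.3 at 20 µM (log2 -0.71 ± 0.17, adjusted p = 0.0168), a call lost without replicate 3 at 10 µM or replicate 2 or 3 at 20 µM (adjusted p up to 0.0733). CHAF1A, E2F1, LIG1, MCM3, MCM5, ORC1, POLD1, POLE and TK1 were the others called, of which LIG1 and POLE were lost with the GC and length trend removed (adjusted p = 0.0679 and 0.0942). Of 50 mitosis genes 0 rose and 3 fell, which is below the share of all genes called lower. KIF18B, a mitotic kinesin, fell from 10.3 to 5.09 CPM (log2 -1.02 ± 0.18, adjusted p = 0.00267). The calls of INCENP and CDC20 were lost without replicate 2 or 3 at 10 µM or replicate 1 or 2 at 20 µM (adjusted p up to 0.0727 and 0.106).

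In homologous recombination and the Fanconi pathway 5 of 38 genes fell and 2 rose, with a median of -0.05. FANCI, part of the complex that the pathway ubiquitinates, fell from 40.5 to 26.4 CPM (log2 -0.62 ± 0.10, adjusted p = 0.00123). FANCA fell from 12.2 to 7.06 CPM (log2 -0.79 ± 0.14, adjusted p = 0.00283) and XRCC3 from 17.4 to 11.4 CPM (log2 -0.61 ± 0.13, adjusted p = 0.00991). Each overlaps another gene counted at 50% or more of its level. Of the 2 that rose, GEN1, a resolvase of crossed DNA strands that overlaps SMC6 and is uncertain, had 5.37, 4.61 and 4.36 CPM at 10 µM and 17.2, 25.7 and 35.4 at 20 µM, and 0 of the 2 were called without replicate 2 or 3 at 20 µM or any of those at 10 µM. The 5 falls became 3 without replicate 3 of either dose. In end joining, excision and mismatch repair 2 of 32 genes fell and 0 rose. PARP1, which senses strand breaks, had 322, 393 and 369 CPM in the untreated libraries, 329, 382 and 400.4 at 10 µM and 226, 211 and 213 at 20 µM, with overlapping untreated and 10 µM libraries and all 20 µM libraries below (log2 -0.77 ± 0.14, adjusted p = 0.00324). Topoisomerases and the enzymes that remove them from DNA showed 0 calls in 8 genes. DNA damage checkpoint genes fell in 3 of 19, CLSPN, CHEK2 and CDC25A, of which the calls of CHEK2 and CDC25A were lost when any 1 of 5 and of 6 libraries was left out.

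Of 27 p53 target genes 2 rose and 1 fell, with a median log2 fold change of 0.35; 8 rose and 2 fell with the GC and length trend removed. CDKN1A, the p21 inhibitor of cell cycle kinases, had 156, 165 and 171 CPM in the untreated libraries, 207, 229 and 229 at 10 µM and 159.9, 336 and 349.7 at 20 µM. At 20 µM 1 library was at the untreated level and 2 lay above all others, and the change was not called (log2 0.35 ± 0.23, adjusted p = 0.349, 95% interval -0.16 to 0.86). In the BCL2 family of death regulators 2 of 15 rose and 2 fell. BBC3 (PUMA), a killer member, had 4.06, 5.73 and 4.51 CPM at 10 µM and 10.6, 10.5 and 12.4 at 20 µM (log2 1.22 ± 0.18, adjusted p = 0.00106). HRK, another, had 3.99, 5.23 and 6.19 CPM at 10 µM and 15.6, 13.1 and 14.4 at 20 µM (log2 1.48 ± 0.18, adjusted p = 0.000204). BMF, of the same class, fell from 27.7 to 16.8 CPM (log2 -0.72 ± 0.13, adjusted p = 0.00318). BOK fell as well, but not without replicate 2 or 3 of either dose (adjusted p up to 0.113). Clock genes rose in 3 of 19 (BMAL1, NFIL3 and RORA) and fell in 3 (CRY2, PER1 and TEF). BMAL1, a core activator of the clock, had 7.28, 7.87 and 8.33 CPM at 10 µM and 13.6, 14.5 and 15.2 at 20 µM (log2 0.88 ± 0.17, adjusted p = 0.00441). TEF, an output factor, had 16, 18.2 and 17 CPM at 10 µM and 10.5, 9.58 and 10.1 at 20 µM (log2 -0.76 ± 0.13, adjusted p = 0.00288). Of the 3 falls 1 was left without replicate 3 at 10 µM or replicate 2 or 3 at 20 µM.

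Drug efflux transporters were called in both directions, with 1 higher and 3 lower of 7. ABCB5, a multidrug transporter, had 1.25, 1.04 and 1.26 CPM in the untreated libraries, 0.613, 0.506 and 0.535 at 10 µM and 8.59, 8.49 and 9.61 at 20 µM (log2 of the step 4.0 ± 0.29, adjusted p = 4.54e-06). Its 10 µM libraries were below the untreated ones, a difference that was not called. ABCC5, an exporter of cyclic nucleotides, had 234, 249 and 248 CPM at 10 µM and 112, 109 and 101 at 20 µM (log2 -1.18 ± 0.10, adjusted p = 1.31e-05). Genes of MYC and ribosome biogenesis fell in 5 of 28 and rose in 2, among them POLR1A, the large subunit of RNA polymerase I, from 86.7 to 50.4 CPM (log2 -0.78 ± 0.10, adjusted p = 0.000419). The falls numbered 3 without replicate 2 at 10 µM or replicate 2 or 3 at 20 µM, and at most 1 rose whichever library was left out. Several lists stood near or below the shares of all genes: glycolysis and hypoxia targets had 0 calls of 30, mitochondrial mRNAs 0 of 13, interferon-stimulated genes 1 higher and 1 lower of 21, and cytosolic ribosomal proteins 1 higher and 2 lower of 78. The higher one, RPL15, was lost whichever library was left out (adjusted p up to 0.135). With the GC and length trend removed, 15 ribosomal proteins were higher and 3 lower, and 4 glycolysis genes were higher and 2 lower. 

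Several of the other large rises had low levels at 10 µM. LURAP1L had 0.883, 0.795 and 0.574 CPM in the untreated libraries, 0.92, 1.35 and 1.38 at 10 µM and 11.3, 15.3 and 15.5 at 20 µM (log2 of the step 3.51 ± 0.31, adjusted p = 2.07e-05). FIBIN, a secreted protein of fin bud development, had 0.613, 0.506 and 1.15 CPM at 10 µM and 6.33, 5.57 and 6.52 at 20 µM (log2 3.04 ± 0.25, adjusted p = 1.08e-05). KRT20, an intestinal and urothelial keratin, had 0.92, 1.41 and 0.611 CPM at 10 µM and 5.21, 5.91 and 5.73 at 20 µM (log2 2.48 ± 0.31, adjusted p = 0.000289). In all of them the doses did not overlap. The largest fall by the same rule was that of SLC6A19, a neutral amino acid transporter of kidney and gut (chr5:1201595-1225111, plus strand), with 7.48, 9.17 and 8.21 CPM in the untreated libraries, 11.2, 10.3 and 10.8 at 10 µM and 0.434, 0.34 and 0.329 at 20 µM. Its 10 µM libraries were the highest, though not called against untreated, and its 20 µM libraries were nearly empty (log2 -4.85 ± 0.37, adjusted p = 5.68e-06). REG4, a secreted lectin, fell from 7.58 to 2.27 CPM (log2 -1.74 ± 0.19, adjusted p = 0.000114). ATOH8, a helix-loop-helix factor, fell from 5.43 to 1.8 CPM (log2 -1.59 ± 0.25, adjusted p = 0.00133). RASAL2, a Ras GTPase-activating protein, fell from 19.2 to 6.6 CPM (log2 -1.55 ± 0.26, adjusted p = 0.00241). YJEFN3 and ZNF589 fell too but overlap other genes.

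Among the largest changes, SLC7A2, C5orf24 and CHAMP1 had 10 µM levels apart from all or most other libraries. None of these genes was called at 10 µM against untreated. SLC7A2, a transporter of cationic amino acids, had 3.74, 28.5 and 29.1 CPM in the untreated libraries, 3.07, 3.49 and 3.44 at 10 µM and 24.7, 28.2 and 32.4 at 20 µM. Here 1 untreated library was as low as those at 10 µM and the other two as high as those at 20 µM (log2 3.09 ± 0.77, adjusted p = 0.0191). C5orf24, which overlaps DDX46 and is uncertain, had 135, 71.9 and 93.1 CPM in the untreated libraries, 20.1, 9.95 and 10.6 at 10 µM and 59.5, 105 and 88.3 at 20 µM, low at 10 µM only (log2 2.64 ± 0.80, adjusted p = 0.0464). CHAMP1, a kinetochore protein, had 7.01, 31.7 and 20.9 CPM in the untreated libraries, 67.1, 63.9 and 63.4 at 10 µM and 13.7, 22.7 and 28.2 at 20 µM, high at 10 µM only (log2 -1.58 ± 0.43, adjusted p = 0.029). With the GC and length trend removed C5orf24 was not called (adjusted p = 0.0841). These calls were lost without some single libraries: SLC7A2 without any at 10 µM or replicate 3 at 20 µM, and C5orf24 and CHAMP1 with any 1 of the 6 left out, at adjusted p up to 0.0697, 0.151 and 0.0953. The same held for ADAMTS1, a secreted metalloprotease with 448, 413 and 447 CPM at 10 µM and 164, 190.1 and 71.1 at 20 µM, without any at 10 µM or replicate 1 or 3 at 20 µM (adjusted p up to 0.0947), for MC1R, the melanocortin receptor, with any 1 of the 6 left out (up to 0.128), and for the unnamed coding gene ENSG00000284820, which overlaps ABCB6 and ATG9A, without replicate 3 at 10 µM or any at 20 µM (up to 0.116).

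Whether the step was like that of the other flavonoid was tested with the same concentrations of baicalein, a flavone and isomer of genistein with its phenyl ring on another carbon of the core and its hydroxyl groups placed differently. From 10 to 20 µM baicalein 54.4% of genes were called, against 13.2% for genistein, and the difference between the 2 steps was called for 5575 genes (32.8%), 2941 with a higher and 2634 with a lower genistein step. Of 20 genes chosen for this comparison 15 differed. SCD rose with genistein (log2 0.84 ± 0.10, adjusted p = 0.000295) and fell with baicalein (-0.39 ± 0.10). FASN rose with genistein and had -0.06 ± 0.14 with baicalein (difference 0.86, adjusted p = 0.00559). TMPRSS2 fell further with baicalein (-2.13 ± 0.12; difference 1.43, adjusted p = 4.39e-05). FOLH1 fell with baicalein (-1.63 ± 0.08) and the difference to genistein was 1.6, adjusted p = 1.39e-06. EGR1 went up with baicalein (3.81 ± 0.15) and down with genistein, the largest difference of the 20 (-5.17, adjusted p = 1.74e-08).

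For 5 of the 20 the difference was not called, which does not show equal responses. The 95% interval of the genistein step minus the baicalein step was -0.92 to 2.88 for HMGCS1, 0.03 to 0.79 for FDPS, -1.17 to 1.81 for INSIG1, -0.11 to 0.54 for SREBF1 and -0.91 to -0.07 for TRIB3. FDPS rose by 2.23 ± 0.13 and INSIG1 by 3.23 ± 0.53 with baicalein. The whole cholesterol synthesis list had a median of 1.43 in the baicalein step and 1.84 in the genistein step, whereas for fatty acid synthesis the medians were -0.45 and 0.78. Mitochondrially encoded genes took 10.55 to 14.48% of counts in the baicalein 20 µM libraries, against at most 6.346% in the genistein ones, and the part of this in the differences was not tested.

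**Figure D5:**
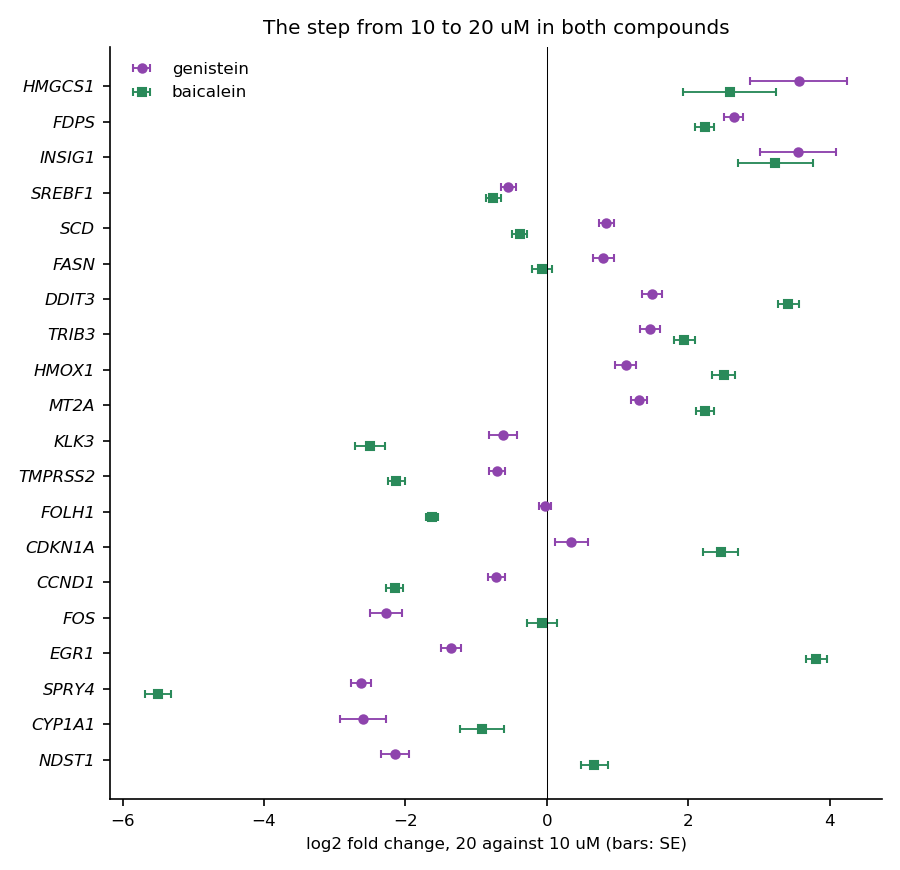
Log2 fold change of 20 against 10 µM (x) with standard errors (bars) for the 20 compared genes (y), for genistein (purple circles) and baicalein (green squares), 3 libraries per dose and compound. The sterol genes at the top move alike in sign, SCD and EGR1 move in opposite directions, and TMPRSS2 and SPRY4 fall further with baicalein.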

How the data were processed

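RNA abundance was measured by poly(A) RNA sequencing. The authors deposited raw counts per gene for each library, whole numbers that were not normalized; the submitters' processing notes name build GRCh38 and the tools STAR 2.7.6a, fastp, DESeq2 1.20.0 and featureCounts 1.6.4. Not given in the sources used here are the annotation release, the strand setting and the handling of multi-mapped reads. The 18 deposited per-library FPKM columns were not used. Each count column was assigned by the line, drug, dose and replicate number in its header.

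From the counts, edgeR 4.0.16 (R 4.3.3; TMM, default low-count filter, robust quasi-likelihood F test) was fitted to all 15 LNCaP libraries with group as the only term, giving 10 residual degrees of freedom, a biological coefficient of variation of 0.235 and the contrast 20 minus 10 µM. P-values were adjusted by Benjamini and Hochberg over 16985 genes; CPM use TMM library sizes. Standard errors are unshrunken log2 fold changes divided by the root of F. GENCODE 29 gave gene types, GC content and transcript lengths (16136 genes tested), and RefSeq gave promoters. In data simulated for this comparison on 16201 genes, 7.46%, 55.2% and 100% of genes changed 1.5-, 2- and 4-fold were called. The changed genes numbered 67, 67 and 66 and had at least 5 CPM at 10 µM. Every simulated gene had the average spread at its level, without a spread of its own. The shares therefore do not carry over to genes of lower level or larger spread. Counts were not collapsed by molecular identifiers.

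The compared groups, the 45 gene lists and the 20 genes of interest were chosen with earlier results of these data known. The text names the 15 largest rises and falls among called protein-coding genes without overlap between libraries and with 5 CPM or more at 1 dose, the 4 members of each list with the smallest adjusted p, called list members, the genes of interest, and a few genes chosen after their values were seen (VIM, TNFRSF19, PMVK, TM7SF2, ACACA, ASNS and ATF3). Some genes that meet these rules are not reported here. Alternatives were DESeq2 1.42.0, RLE factors, no filter, the compared groups alone, the replicate number as a block, mitochondrial genes left out, GC and length trends removed, and each library left out.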

Additional observations from a re-analysis of the deposited data

Results flagged for a closer look

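The step from 10 to 20 µM had a different size or sign with genistein than with baicalein in 15 of the 20 genes compared, by the interaction term of the edgeR fit. Differences are the genistein step minus the baicalein step, on the log2 scale, 3 libraries per dose. Genistein gave the higher value for SCD (1.23, adjusted p = 6.07e-05), FASN (0.86, adjusted p = 0.00559), KLK3 (1.89, adjusted p = 0.000345), TMPRSS2 (1.43, adjusted p = 4.39e-05), FOLH1 (1.6, adjusted p = 1.39e-06), CCND1 (1.44, adjusted p = 5.54e-05) and SPRY4 (2.87, adjusted p = 2.81e-06). For KLK3, TMPRSS2, CCND1 and SPRY4 the fitted change was negative with both compounds and larger with baicalein. Genistein gave the lower value for DDIT3 (-1.92, adjusted p = 1.91e-05), HMOX1 (-1.39, adjusted p = 0.000426), MT2A (-0.93, adjusted p = 0.00103) and CDKN1A (-2.12, adjusted p = 0.000449), whose fitted changes were positive with both. It was also lower for FOS (-2.20, adjusted p = 0.000189), EGR1 (-5.17, adjusted p = 1.74e-08), CYP1A1 (-1.69, adjusted p = 0.0121) and NDST1 (-2.82, adjusted p = 1.19e-05). FOS and CYP1A1 fell with genistein, by more than the baicalein change. EGR1 and NDST1 fell with genistein and had positive changes with baicalein.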

How the results depend on the processing

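Against 2246 calls (950 higher, 1296 lower), the step gave 2881 with DESeq2, 2302 with RLE factors, 3009 with the compared groups alone, 2386 without mitochondrially encoded genes and 1623 with no filter. Without the filter 872 were higher and 751 lower, so 53.7% of calls were higher against 42.3%. Removing the GC and length trend gave 3466 calls, 1746 higher and 1720 lower, of which 50.4% were higher. Leaving out 1 library gave 1201 to 1777 calls, 508 to 807 higher and 693 to 981 lower. The difference to the baicalein step was called for 4763 to 7095 genes over all alternatives. Of 198 called genes followed by name, 117 stayed called in every alternative and 81 were lost in at least 1, 1 of them, INSIG2, with a reversed sign (-0.03 with the GC and length trend removed). Same-numbered libraries of the 2 doses did not deviate together (correlations -0.181, -0.017 and -0.148). With 3 libraries a dose this cannot decide whether the numbers pair the samples. With the replicate number as a block 1746 genes were called, 725 higher and 1021 lower. For 5407 genes that were not called the 95% interval reached beyond 2-fold, which limits what 3 libraries a dose can show. The cause of these shifts was not tested, except that a test without the filter covers more genes.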

Other observations

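Some gene groups outside the comparisons above held calls in both directions at 20 against 10 µM, read against 5.59% higher and 7.63% lower over all genes tested. Of 19 NF-kB and inflammatory genes 3 were higher, CXCL8, RELB and TNF, and 1 was lower, NFKB1. With the compared groups alone 13 passed the filter, CXCL8 and TNF not among them, and 1 was higher and 2 lower. CXCL8 was also not called with the GC and length trend removed (adjusted p = 0.0712 in the edgeR fit). Of 15 tested genes on the YAP and TEAD list 1 was higher, WWTR1, which is a coactivator and not a target. On that list 3 were lower, CCN1, AMOTL1 and ARHGEF17. Of 11 replication-dependent histone genes 0 were higher and 3 were lower, H1-4, H2BC21 and H2BC4, and their reads can be shared with near-identical copies or, for H2BC4, with an overlapping gene. The call of H2BC4 was lost with no filter and without replicate 2 at 10 µM or replicate 2 or 3 at 20 µM (adjusted p up to 0.0788). Only poly(A) RNA was sequenced, and how far the counts cover histone transcripts was not tested.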
